A study of Mus musculus with 7 samples.

Results

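The MYC, MAX and MXD network is described here through 8 genes, taken by their symbols from the deposited gene counts: Myc, Max, Mxd1, Mxd3, Mxd4, Mxi1, Mnt and Mlx. All 8 were found among the 53656 gene rows, and all 8 passed the filter on low counts with 15896 genes in all. The counts come from 7 RNA-seq libraries of OT1 cells, mouse CD8 T cells with a transgenic receptor for an ovalbumin peptide, sorted by CD8 and CD45.1 from B16-OVA-GP61 tumours, which grow from a melanoma line carrying ovalbumin and the GP61 epitope. In 4 libraries the tumours held no SMARTA cells, and in 3 libraries they held SMARTA cells, CD4 T cells whose transgenic receptor sees GP61. The series asks what CD4 T cells do to CD8 T cells specific for a tumour, and these groups put that question to the transcripts. The labels give no age, strain, time point or batch and do not say whether libraries of a group came from separate mice, so p-values measure the spread between these samples, which may be technical.

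Libraries held 38092722 to 49438357 counts. Summed CD8 T cell markers (Cd3d, Cd3e, Cd3g, Cd8a, Cd8b1, Ptprc and Trac) lay between 8992 and 12660 CPM, a gene's count scaled to the size of its library, with all 7 markers detected in every library, and Cd4 itself lay between 0.659 and 8.09 CPM. Replicate 1 with SMARTA stood apart by 4830 CPM of erythroid markers, against 9.93 to 223 CPM in the others, and replicate 2 without SMARTA by 68.4 CPM of melanoma markers, against 6.70 to 16.9 CPM. Over all genes tested, 3.15% were called between the groups, 1.52% as higher and 1.63% as lower with SMARTA (quasi-likelihood test of edgeR, threshold 0.05 on p adjusted by Benjamini-Hochberg). Groups did not overlap for 19.2%, with 8.73% higher and 10.5% lower.

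MYC is a transcription factor that binds DNA only as a dimer with MAX, and MYC and MAX together raise transcription of genes for ribosome assembly, translation, nutrient uptake and metabolism when a T cell is activated. MXD1, MXD3, MXD4, MXI1 and MNT pair with the same partner, bind the same E-box sequence, and recruit a SIN3 and histone deacetylase corepressor, so that they oppose MYC at shared sites. MLX is a parallel partner that pairs with MondoA, ChREBP, MNT and some MXD proteins. In many cell types MYC goes with growth and MXD1 with exit from the cell cycle, while Mxd3 is unusual in the family in being expressed in S phase.

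With SMARTA cells present, OT1 cells carried more transcript of the repressor Mxd1 and less of Mxd3, and these were the members that passed the test: 1 of 8 was called higher and 1 of 8 lower. Myc was lower in every library with SMARTA than in every library without, and the fitted difference between the groups was 2.46-fold, but it did not pass the test. Max and Mlx, the shared partners, and Mxd4, Mxi1 and Mnt had groups that overlapped. By counts, 1 of 8 called higher stands against 1.52% of all genes, and 1 of 8 called lower against 1.63%. In total 3 of the 8 genes had groups that did not overlap, against 19.2% of all genes tested, and the median log2 fold change of the 8 was 0.18 against -0.0034 over all genes. In a bulk sample, fewer cells that express a gene and less transcript per cell cannot be told apart.

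**Figure D1:**
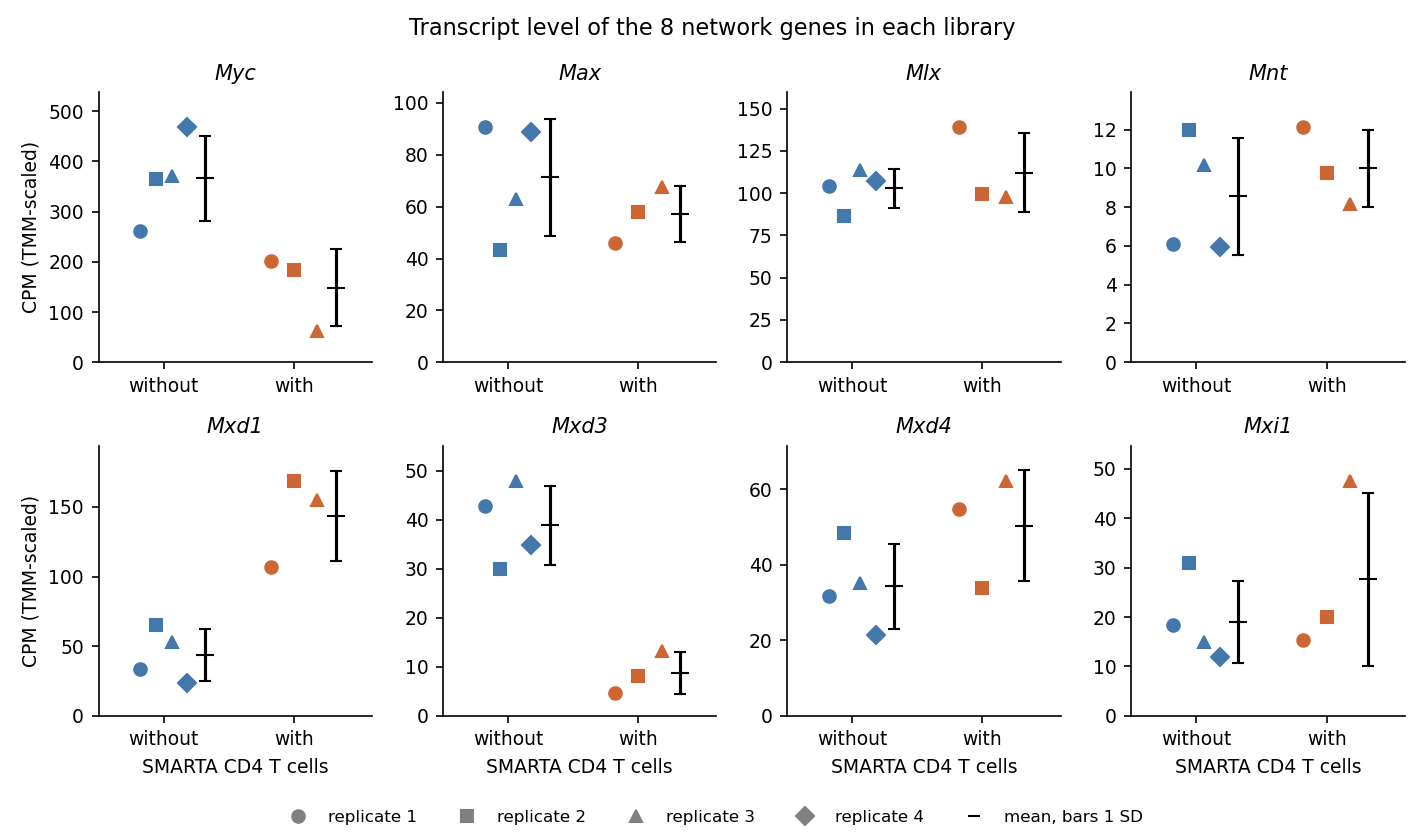
TMM-scaled CPM (y axis, linear, from 0) of the 8 genes in each library without (blue) and with SMARTA (orange). Symbols mark the replicate number, and black marks give the mean with bars of 1 SD (n = 4 and 3). The groups do not overlap for Myc, Mxd1 and Mxd3 and overlap for the other 5 genes.

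Myc, on chromosome 15 from 61985391 to 61990374 (GRCm38, plus strand), was at 260, 366, 370 and 468 CPM in replicates 1 to 4 without SMARTA, scaled by TMM as all single-gene values here. With SMARTA it was at 201, 184 and 61.6 CPM in replicates 1 to 3. The lowest library without SMARTA thus stood above the highest with SMARTA, and replicate 3 with SMARTA was the lowest of all. The means were 366 ± 84.6 CPM without and 149 ± 75.8 CPM with SMARTA (SD, n = 4 and 3). The log2 fold change was -1.30 ± 0.40 (SE), with a 95% interval from -2.21 to -0.39 and an edgeR adjusted p of 0.122. It passed with DESeq2 (adjusted p = 0.0178), which called 5.78% of all genes lower. It also passed when edgeR tested only genes of at least 5 CPM in at least 3 libraries (adjusted p = 0.0484), where 8.97% of genes were called and 5.23% as lower. None of the 7 edgeR fits that each leave out a library called Myc, and its log2 fold change ranged over them from -1.58 to -0.96. Such fits called 0.110% to 5.41% of all genes. Summed melanoma markers were at 6.91 to 68.4 CPM without and at 6.70 to 9.24 CPM with SMARTA, and at 6.91 CPM in replicate 4 without SMARTA, the library with the most Myc. The part of melanoma transcript in the Myc difference was not tested. Pvt1, the long noncoding RNA transcribed next to Myc, was at 37.8 ± 2.37 and 32.4 ± 5.62 CPM (log2 fold change -0.22, adjusted p of 0.652 by edgeR), with groups that overlapped.

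Mxd1, on chromosome 6 from 86647042 to 86669161 (minus strand), encodes the family member first linked to terminal differentiation. It was at 33.4, 65.0, 52.9 and 23.8 CPM in replicates 1 to 4 without SMARTA. With SMARTA it was at 107, 169 and 155 CPM. All 3 libraries with SMARTA lay above all 4 without. Mxd1 rose 3.28-fold, from 43.8 ± 18.6 to 144 ± 32.4 CPM (SD, n = 4 and 3), a log2 fold change of 1.71 ± 0.35 (SE; edgeR adjusted p = 0.0424). Of the 7 fits that each leave out a library, 2 called it, those that drop a library that stands apart, and its log2 fold change ranged from 1.51 to 1.97. Under library totals in place of TMM factors, where 3.53% of all genes were called, its adjusted p was 0.0589 by edgeR. Summed markers of neutrophils, which also express Mxd1, lay at 51.1, 43.0, 3.44 and 4.82 CPM in replicates 1 to 4 without SMARTA. They were lower, at 0.773 to 2.73 CPM, with SMARTA, where 2 to 4 of the 8 markers had no count. Retnlg was at 0 in every library with SMARTA and in replicates 3 and 4 without. The part of neutrophil transcript in the Mxd1 difference was not tested. Leaving out both libraries that stand apart, a fit that called 7.69% of all genes, gave Mxd1 a log2 fold change of 2.14 (adjusted p of 0.0133 by edgeR).

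Mxd3, on chromosome 13 from 55325168 to 55329823 (minus strand), was at 42.8, 30.0, 47.9 and 34.8 CPM in replicates 1 to 4 without SMARTA. With SMARTA it was at 4.71, 8.02 and 13.2 CPM. The groups did not overlap, and the lowest library without SMARTA had over 2 times the level of the highest with SMARTA. Mxd3 fell 4.50-fold, from 38.9 ± 8.04 to 8.65 ± 4.30 CPM (SD, n = 4 and 3), a log2 fold change of -2.17 ± 0.39 (SE; edgeR adjusted p = 0.0294). Of the 7 fits that each leave out a library, 3 called it, those that drop a library that stands apart or replicate 3 with SMARTA, and its log2 fold change ranged from -2.62 to -1.89. Leaving out both libraries that stand apart gave Mxd3 a value of -1.98 on that scale (adjusted p of 0.0154 by edgeR). Of its exon bases, 4.43% overlap the antisense gene Prelid1, and read pairs that fell on both were not counted for either.

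Genes of S phase and mitosis were lower along with Mxd3. Of 20 such genes 15 were called lower and none higher with SMARTA, against 1.63% of all genes called lower, and all 20 had groups that did not overlap, against 10.5% of all genes lower without overlap, with a median log2 fold change of -2.34. Ube2c, a ubiquitin-conjugating enzyme of mitosis, fell by 3.30 ± 0.40 (SE) on the log2 scale, and the mitotic kinase Plk1 by 2.76 ± 0.38. Cdc20, an activator of the anaphase-promoting complex, fell by 2.36 ± 0.39, and Rrm2, a subunit of ribonucleotide reductase, by 2.55 ± 0.43 (adjusted p of 0.0131 for Ube2c to 0.0257 for Rrm2 by edgeR). The count of 15 was 0 without replicate 4 and 2 without replicate 1 or replicate 3 of the group that lacks SMARTA, and it was 0 or 2 when replicate 2 or replicate 3 with SMARTA was dropped. These fits called few genes of any kind, from 0.110% to 0.639% of all genes. Summed over the list, transcript was at 6687, 3360, 5374 and 5145 CPM in replicates 1 to 4 without SMARTA and at 942, 1426 and 1554 CPM in replicates 1 to 3 with SMARTA. Within each group the library with the lowest sum was also the library with the least Mxd3. These were replicate 2 without and replicate 1 with SMARTA, the libraries that stand apart. At the top, the highest sum and the most Mxd3 met in replicate 3 with SMARTA. Without SMARTA they were in different libraries, replicate 1 and replicate 3. The part of cells in cycle in the difference of Mxd3 was not tested.

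**Figure D2:**
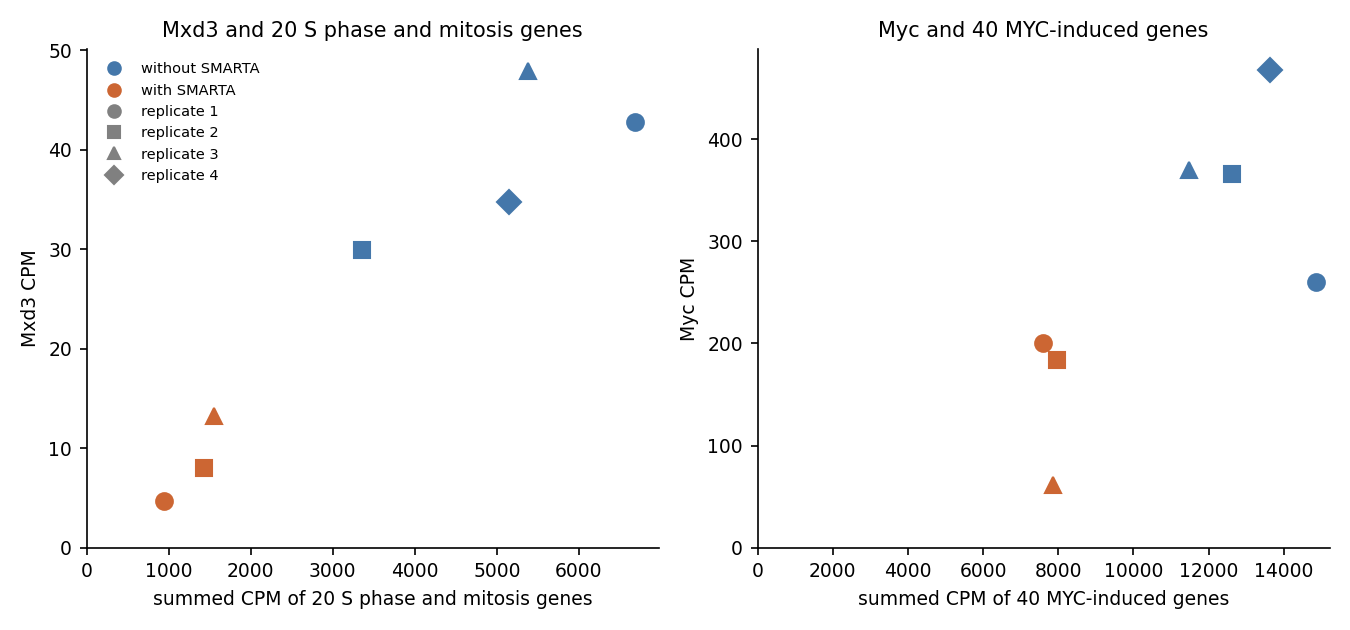
Left, Mxd3 (CPM, y axis) against the summed CPM of 20 S phase and mitosis genes (x axis) in each library; right, Myc (CPM) against the summed CPM of 40 MYC-induced genes. Colours give the group and symbols the replicate number. On the left the libraries with SMARTA lie at 942 to 1554 CPM and at 4.71 to 13.2 CPM of Mxd3; on the right they lie between 7584 and 7976 CPM, and the others between 11469 and 14861 CPM, in a sum of which Ldha is 35.1% to 45.4%.

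The other MXD genes did not pass. Mxd4, on chromosome 5 from 34173883 to 34187720 (minus strand), was at 31.7, 48.5, 35.3 and 21.5 CPM without SMARTA and at 54.9, 33.9 and 62.2 CPM with SMARTA, so that replicate 2 with SMARTA fell within the range of the other group. Its log2 fold change was 0.55 with a 95% interval from -0.18 to 1.29 (edgeR adjusted p = 0.419). Mxi1, on chromosome 19 from 53310506 to 53375810 (plus strand), was at 18.3, 30.9, 15.0 and 12.0 CPM without SMARTA and at 15.3, 19.9 and 47.6 CPM with SMARTA. Replicate 3 with SMARTA, which had the least Myc, had the most Mxi1, and the other libraries with SMARTA lay inside the range of those without. Its log2 fold change was 0.53 with a 95% interval from -0.52 to 1.59 (edgeR adjusted p = 0.607), and it was -0.14 without that library. Summed erythroid markers were at 37.3 to 223 CPM without SMARTA, and at 4830, 9.93 and 214 CPM in replicates 1 to 3 with SMARTA. The part of erythroid transcript in the level of Mxi1 was not tested. Mnt, the family member found in most cell types, lies on chromosome 11 from 74830920 to 74845725 (plus strand). It was at 6.10, 12.0, 10.2 and 5.93 CPM without SMARTA and at 12.1, 9.76 and 8.17 CPM with SMARTA (log2 fold change 0.23, 95% interval -0.57 to 1.02, adjusted p of 0.794 by edgeR).

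Neither common partner was called. Max, on chromosome 12 from 76937269 to 76962201 (minus strand), was at 90.6, 43.4, 62.9 and 88.7 CPM without SMARTA and at 46.2, 58.0 and 67.5 CPM with SMARTA. All 3 values with SMARTA lay inside the range of the others, and the log2 fold change was -0.32 with a 95% interval from -0.99 to 0.35 (edgeR adjusted p = 0.630). Mlx, also on chromosome 11, from 101087277 to 101092207 (plus strand), was at 104, 86.5, 114 and 107 CPM without SMARTA and at 139, 99.5 and 98.0 CPM with SMARTA. Its log2 fold change was 0.12 with a 95% interval from -0.33 to 0.58 (edgeR adjusted p = 0.807), and it turned to -0.025 under library totals and to -0.073 without replicate 1 with SMARTA. Of the exon bases of Mlx, 19.3% overlap the antisense gene Psmc3ip, so that its count leaves out read pairs that fell on both.

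**Figure D3:**
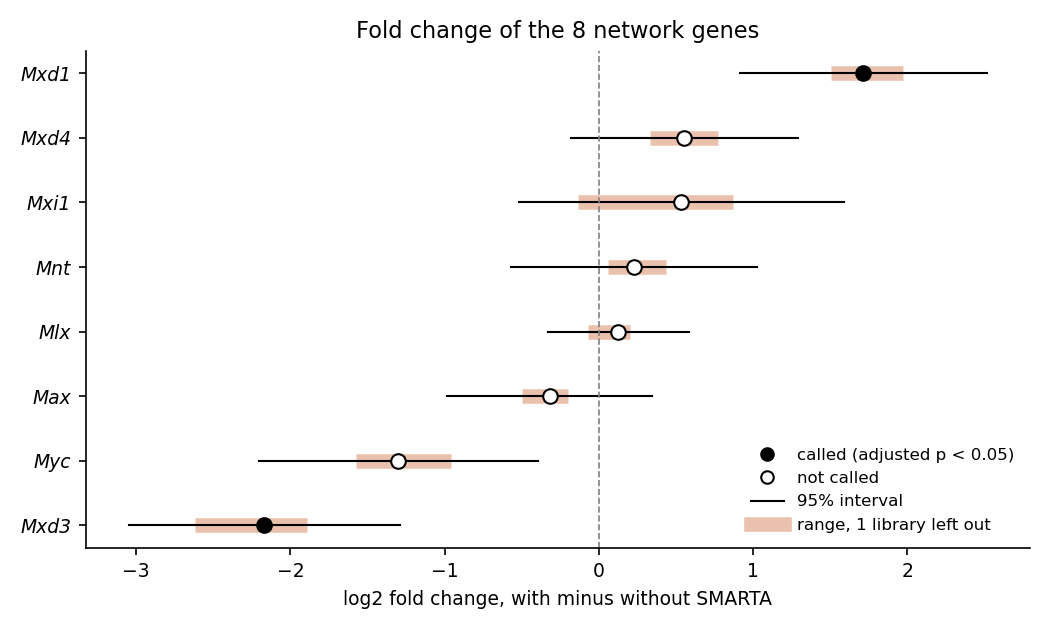
Log2 fold change with minus without SMARTA (x axis) for the 8 genes. Circles give the edgeR estimate (filled, adjusted p under 0.05; open, not called), black lines the 95% interval and orange bars the range over the 7 fits that leave out 1 library. Mxd1 at 1.71 and Mxd3 at -2.17 are filled, and the interval of Myc, from -2.21 to -0.39, does not reach 0 although its adjusted p is 0.122.

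MYC, MXD and MNT dimers with MAX, and MLX dimers with their partners, bind the E-box with the letters CACGTG, a palindrome that reads the same on both strands. RefSeq start windows (GRCm38.p6, from 250 bases before to 50 bases after a start) were at hand for 7 of the 8 genes, all but Myc. The letters were present in the window of 4 of these 7 genes, against 8.09% of 27025 genes with a window. The 4 stretches are shown because they place the network's own recognition letters at the start of its partner and repressor genes. E-box letters are in capitals, and each stretch reads 5′ to 3′ on the gene's strand.
Max, chr12:76962229-76962275, minus strand: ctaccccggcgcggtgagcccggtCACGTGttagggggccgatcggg
Mlx, chr11:101087226-101087279, plus strand: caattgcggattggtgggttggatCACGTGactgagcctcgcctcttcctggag
Mnt, chr11:74830777-74830830, plus strand: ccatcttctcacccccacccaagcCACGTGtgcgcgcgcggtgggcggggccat
Mxd4, chr5:34187900-34187953, minus strand: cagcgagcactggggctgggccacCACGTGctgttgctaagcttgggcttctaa
None of these 4 genes was called between the groups by edgeR or had an unadjusted p under 0.05, and DESeq2 and limma-voom called none of them. The single windows of Mxd1 and Mxd3 and the 3 windows of Mxi1 did not hold these letters, which says nothing of other sites or windows.

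Levels between genes were compared per length, as CPM per kilobase (kb) of the exon length the files give. Without SMARTA, Myc was the most abundant of the 8 at 135 ± 31.2 CPM per kb (SD, n = 4), followed by Mlx at 51.5 ± 5.83, Max at 19.8 ± 6.28 and Mxd3 at 16.4 ± 3.39. Mxd1 at 6.19 ± 2.64, Mxd4 at 4.04 ± 1.32, Mxi1 at 3.39 ± 1.48 and Mnt at 1.85 ± 0.654 CPM per kb came after them. In that order the ranges of mean ± SD overlapped for Max and Mxd3, Mxd1 and Mxd4, Mxd4 and Mxi1, and Mxi1 and Mnt. Within every library without SMARTA, Mxd1 lay above Mxd4, Mxd4 above Mxi1 and Mxi1 above Mnt. Max and Mxd3 changed places between those libraries. With SMARTA the order of levels was Mlx at 56.1 ± 11.6 CPM per kb (SD, n = 3), Myc at 54.7 ± 27.9, Mxd1 at 20.3 ± 4.59 and Max at 15.9 ± 2.97. Below them were Mxd4 at 5.93 ± 1.73, Mxi1 at 4.91 ± 3.10, Mxd3 at 3.65 ± 1.81 and Mnt at 2.17 ± 0.430 CPM per kb. The ranges of mean ± SD overlapped there for Mlx and Myc, Mxd1 and Max, Mxd4 and Mxi1, Mxi1 and Mxd3, and Mxd3 and Mnt. Within every library with SMARTA, Mxd1 lay above Max and Mxi1 above Mxd3, while the other pairs changed places between libraries. Averaged over the groups, Myc stood at the 96.3rd percentile of all genes tested per kb and Mnt at the 44.3rd.

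Per kb, the gene with the largest part of the repressor transcript was Mxd3 without SMARTA and Mxd1 with SMARTA. Mxd1, Mxd3, Mxd4, Mxi1 and Mnt together gave 31.9 ± 5.79 CPM per kb without and 37.0 ± 8.09 CPM per kb with SMARTA, with groups that overlapped. Mxd3 made up 58.1%, 35.5%, 55.1% and 61.2% of that sum in replicates 1 to 4 without SMARTA and 6.87%, 9.18% and 12.4% in replicates 1 to 3 with SMARTA. Mxd1 made up 15.2%, 25.8%, 20.4% and 14.0% without and 52.3%, 64.7% and 48.7% with SMARTA. In each library without SMARTA Mxd3 was therefore the leading repressor transcript per kb, and in each library with SMARTA it was Mxd1. The lead of Mxd3 depended on division by exon length, 2369 bases for Mxd3 and 7072 for Mxd1. In CPM, Mxd3 lay above Mxd1 in replicates 1 and 4 without SMARTA. It lay below Mxd1 in replicates 2 and 3 (30.0 against 65.0 and 47.9 against 52.9 CPM). With SMARTA, Mxd1 led in CPM too. The log2 ratio of Myc to the summed repressor transcript per kb was 1.62, 1.92, 1.89 and 2.84 without and 1.35, 0.87 and -0.99 with SMARTA. Per kb, only in replicate 3 with SMARTA did the summed repressor transcript exceed Myc. This too depended on division by exon length. In CPM, Mxd1 at 169 and Mxd4 at 33.9 together already lay above Myc at 184 in replicate 2 with SMARTA. The mean difference in the log2 ratio was -1.66, and -0.96 without replicate 3 with SMARTA. Leaving Mxd3 out of the sum gave -2.61. These are values without a test, since the genes were chosen with earlier results of these data known.

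**Figure D4:**
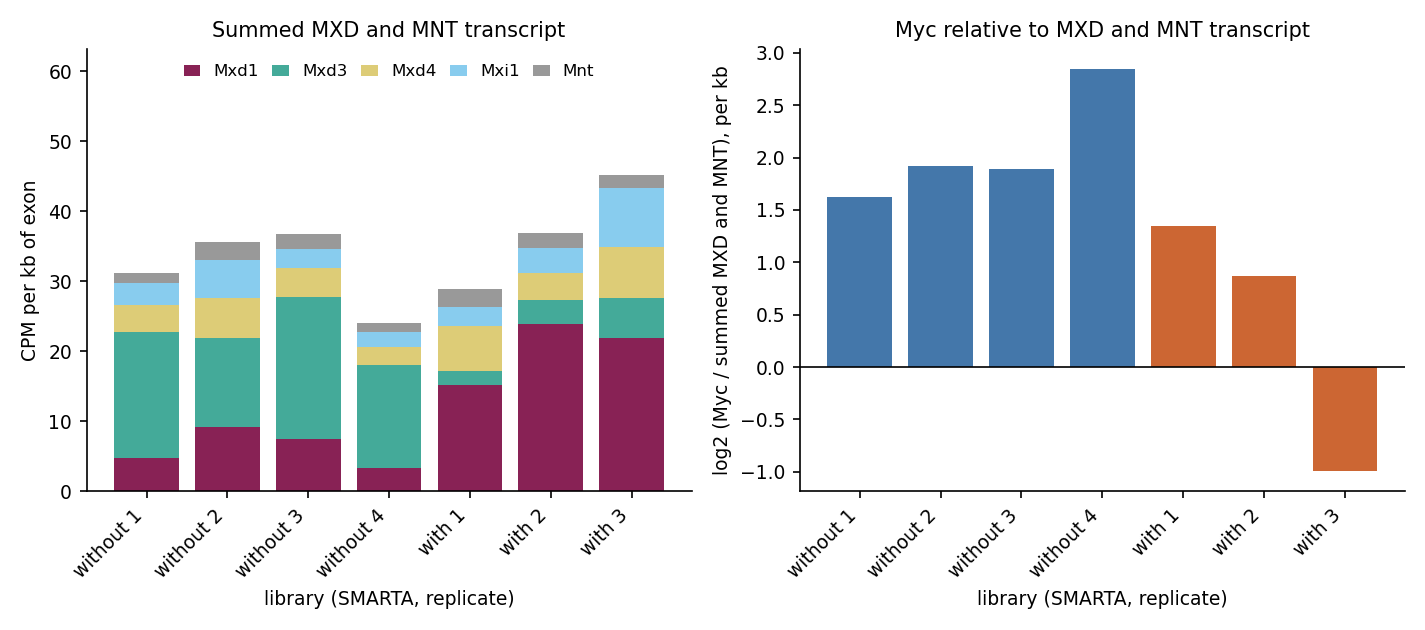
Left, stacked CPM per kb of exon of Mxd1, Mxd3, Mxd4, Mxi1 and Mnt in each library; right, log2 ratio of Myc to their sum (blue, without; orange, with SMARTA). Mxd3 is the largest part in the 4 libraries without SMARTA and Mxd1 in the 3 with SMARTA, and the ratio is lowest, at -0.99, in replicate 3 with SMARTA.

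Genes that MYC is known to induce were lower with SMARTA in 37 of 40 tested by the sign of their fold change, of which 6 were called lower and none higher (1.63% of all genes were called lower); 22 were lower at an unadjusted p under 0.05, against 9.37% of all genes. Of the 40, 20 had groups that did not overlap, all of them lower with SMARTA, against 10.5% of all genes tested, and the median log2 fold change was -0.83 against -0.0034. Slc7a5, a transporter of large amino acids, fell from 15.6 ± 2.82 to 3.82 ± 0.527 CPM (SD, n = 4 and 3), a log2 fold change of -2.03 ± 0.29 (SE) with an adjusted p of 0.0175 by edgeR. Pa2g4, a growth-related factor of the nucleolus, fell from 239 ± 50.4 to 92.02 ± 8.11 CPM, and Nolc1, a nucleolar phosphoprotein of ribosome assembly, from 241 ± 44.5 to 96.5 ± 4.22 CPM (log2 fold changes -1.38 and -1.32). Nop56, a core protein of small nucleolar RNPs, fell from 417 ± 59.9 to 195 ± 19.1 CPM (-1.10). The other genes called were Eif4a1, an RNA helicase of translation initiation (-1.001), and Shmt2, which makes one-carbon units in mitochondria (-1.15). They are named outside the naming rule, to complete the count. The highest fold changes of the list were those of Slc3a2 (0.62) and Slc2a1 (0.52), named after their values were seen (edgeR adjusted p = 0.418 and 0.279). The count of 6 changed with single libraries. It was 0 without replicate 1, 0 without replicate 4 and 2 without replicate 3 of the group that lacks SMARTA. It was also 0 when replicate 2 or replicate 3 with SMARTA was dropped. The fits with these lower counts called 0.110% to 0.639% of all genes. Over the fits that each leave out a library, the log2 fold change ranged from -2.13 to -1.94 for Slc7a5, from -1.49 to -1.30 for Pa2g4, from -1.42 to -1.26 for Nolc1 and from -1.19 to -1.02 for Nop56.

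Summed over the 40 genes, transcript was at 14861, 12630, 11469 and 13624 CPM in replicates 1 to 4 without SMARTA and at 7584, 7976 and 7864 CPM with SMARTA. Sums are scaled by plain library totals. Ldha, the lactate dehydrogenase subunit of glycolysis, made up 35.1% to 45.4% of the sum. Without Ldha, a sum added after seeing the data, the other 39 genes were at 8119, 7788, 7137 and 8844 CPM without SMARTA and at 4603, 5091 and 4328 CPM with SMARTA. The groups did not overlap in either sum. The order within a group depended on Ldha: without it, replicate 4 lacking SMARTA, with the most Myc, was highest, and replicate 3 with SMARTA, with the least Myc, was lowest, while with it neither was. Even without Ldha the order did not follow Myc throughout. Replicate 1 lacking SMARTA, with the least Myc of its group (260 CPM), had a higher sum than replicate 3 (370 CPM of Myc). Replicate 1 with SMARTA, with the most Myc of its group (201 CPM), had a lower sum than replicate 2. Summed S phase and mitosis transcript was lower in the same libraries, and its part in the lower level of MYC-induced genes was not tested.

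**Figure D5:**
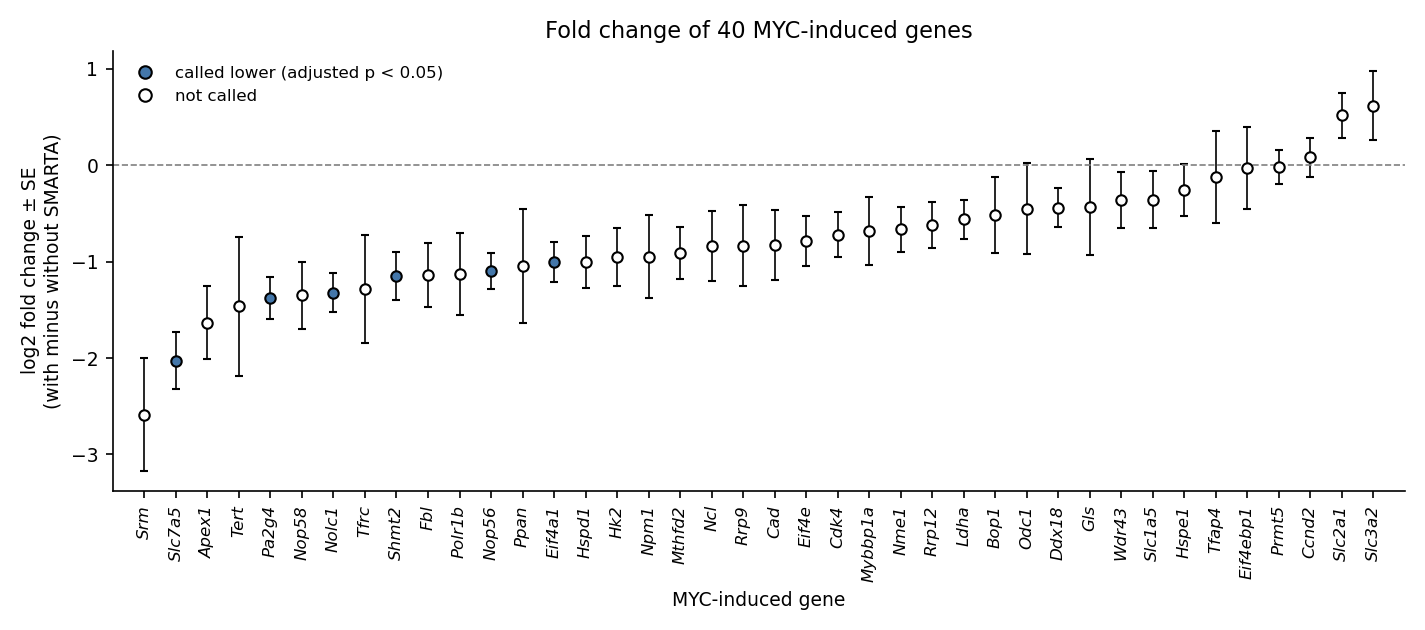
Log2 fold change with minus without SMARTA (y axis, bars 1 SE) of 40 MYC-induced genes in order of size. Filled circles mark the 6 genes called lower; 37 of the 40 lie below 0.

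Genes were ranked by Pearson correlation of log2 CPM with Myc over the 7 libraries. Among 8169 with an established symbol and moderate or high expression, the most like Myc were Ccdc86 (r = 0.990), Gcsh (0.979), Fbl (0.978), Ipo4 (0.977) and Vdac2 (0.976). These values describe 7 libraries in 2 groups and carry no test. Fbl, the nucleolar methyltransferase fibrillarin, is also in the list of MYC-induced genes, and had means of 103 ± 14.7 and 46.5 ± 21.98 CPM (log2 fold change -1.14, adjusted p of 0.105 by edgeR).

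Genes that MYC represses were not called in either direction among 6 tested (edgeR). At an unadjusted p under 0.05, 1 was higher and 1 lower, against 9.18% and 9.37% of all genes, and DESeq2 called 1 higher and limma-voom, which called 3.11% of all genes, none. Cdkn1b, which encodes the cyclin-dependent kinase inhibitor p27, had means of 27.1 ± 9.22 and 58.4 ± 7.19 CPM, and all 3 libraries with SMARTA lay above the 4 others (log2 fold change 1.11 ± 0.29, SE; adjusted p of 0.0789 by edgeR). It passed with DESeq2 (adjusted p = 0.00731), which called 5.17% of all genes higher. Ndrg1, a differentiation and hypoxia-responsive gene, was at 96.3 ± 23.7 and 55.3 ± 17.7 CPM (log2 fold change -0.80, adjusted p of 0.193 by edgeR), with groups that overlapped.

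On the MLX side, Txnip, an inhibitor of glucose uptake induced by MLX with MondoA, was at 477, 770, 576 and 459 CPM without and at 2965, 1107 and 1548 CPM with SMARTA. All libraries with SMARTA lay above all without, and Txnip rose by a log2 fold change of 1.72 ± 0.34 (SE; edgeR adjusted p = 0.0406). Replicate 1 with SMARTA, the library with 4830 CPM of erythroid markers, had the most Txnip, and the log2 fold change without it was 1.20 (adjusted p of 0.0331 by edgeR). The call was lost in 5 of the 7 fits that each leave out a library, all but those that drop a library that stands apart, and under library totals (adjusted p of 0.0520 by edgeR). Txnip was the 1 gene called of 3 in its list, against 1.52% of all genes called higher. Klf10 and Arrdc4, the rest of the list, are named outside the naming rule and had groups that overlapped. Their log2 fold changes were 0.54 and -0.064 (edgeR adjusted p = 0.352 and 0.984), and Arrdc4 was low, at means of 1.62 CPM without and 1.55 CPM with SMARTA.

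Other partners of the network did not pass. Of 7 genes listed (Mycn, Mycl, Mga, Mlxip, Mlxipl, Zbtb17 and Pvt1), Mycl and Mlxipl did not pass the filter on low counts, and none of the 5 tested was called or had an unadjusted p under 0.05 by edgeR, nor was any called by DESeq2 or limma-voom. Mga, a large MAX partner that acts in repression, was at 47.0 ± 5.87 and 66.5 ± 31.99 CPM (log2 fold change 0.50, adjusted p of 0.511 by edgeR), and the lowest of all libraries, at 29.9 CPM, was replicate 1 with SMARTA. Leaving out both libraries that stand apart, Mga was higher with SMARTA by 0.93 on the log2 scale (adjusted p of 0.0401 by edgeR).

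Of 14 genes of the SIN3 and histone deacetylase corepressor that MXD and MNT proteins recruit, none was called by edgeR. At an unadjusted p under 0.05, 2 were lower, against 9.37% of all genes, and DESeq2 called 1 lower, against 5.78% of all genes, and limma-voom none. Rbbp7, a histone-binding subunit, was at 556 ± 137 and 295 ± 42.4 CPM (log2 fold change -0.92 ± 0.23, SE; adjusted p of 0.0699 by edgeR), with no overlap between the groups. Under library totals, a filter of at least 5 CPM in at least 3 libraries, or DESeq2, its adjusted p was 0.0382, 0.0272 and 0.00827. Brms1l, another subunit, was at 22.6 ± 3.64 and 15.0 ± 2.35 CPM (edgeR adjusted p = 0.250).

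Of 15 coactivators that bind MYC, 1 was called lower and none higher, against 1.63% and 1.52% of all genes. Ruvbl2, an ATPase of the TIP60 and INO80 chromatin complexes, fell from 128 ± 12.5 to 62.0 ± 9.21 CPM (SD, n = 4 and 3; log2 fold change -1.05 ± 0.19, SE; adjusted p of 0.0303 by edgeR). It kept its call in the 2 fits that drop a library that stands apart and lost it in the other 5 that each leave out a library. Of 16 listed genes that set the stability of the MYC protein, 15 were tested and Cip2a was not analysed here. Of them 1 was called lower, against 1.63% of all genes, and none higher. It was the kinase Plk1, which also stands in the S phase and mitosis list. Plk1 lost its call when replicate 4 of the group that lacks SMARTA, or replicate 2 with SMARTA, was left out. Fbxw7, the ubiquitin ligase subunit that marks MYC for destruction, is named for its role after its values were seen, and was at 10.8 ± 3.47 and 11.6 ± 4.61 CPM (log2 fold change 0.11, adjusted p of 0.917 by edgeR).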

How the data were processed

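Messenger RNA was measured in 7 libraries, grouped by their titles. Per the labels' protocols, total RNA of sorted cells was amplified with SMART-seq V4, which does not mark strand. The submitters' processing notes name STAR 2.6.0c, featureCounts 1.6.2 and GRCm38.p6. The deposited values are raw counts of read pairs per gene name, made by the authors with featureCounts over GENCODE exons, without strand, per the file headers; pairs that match several places or genes are left out by default.

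Counts were tested with edgeR 4.0.16 in R 4.3.3: filterByExpr (minimum count 10, total 15), TMM scaling, and a robust quasi-likelihood fit over all 7 libraries with no covariate, two-sided, with Benjamini-Hochberg adjustment over 15896 genes and a threshold of 0.05. A standard error is the log2 fold change over the root of its F statistic. A gene with no count lay below 0.0607 to 0.0788 CPM (3 counts, counting error only). Alternatives were other scalings and filters, DESeq2 1.42.0, limma-voom (limma 3.58.1), a block on the replicate number, and fits that each leave out a library; leaving out both libraries that stand apart was chosen after seeing the data. On simulated counts for this comparison with the measured spread, 15896 genes and 200 changed, edgeR found 40% of the genes changed 4-fold and 2% of those changed 2-fold, so a missing call does not show that a gene did not differ. DESeq2 found 62% and 16% with 51 false calls, edgeR with 0.

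The members and the 8 other gene lists were chosen with earlier results of these data known. Named are all members, up to 4 called genes per list by smallest p (or the 2 smallest where none was called), and the 5 genes most correlated with Myc at a mean log2 CPM (prior count 2) of at least 3. The correlation ranking left out gene models without an established symbol and receptor or immunoglobulin segments. Summed CPM of the 7 marker lists used plain library totals and a two-sided exact permutation test over 35 splits, with a smallest p of 0.0286. No sum passed after Benjamini-Hochberg adjustment over the 7 lists: adjusted p was 0.35 for CD8 T cell, CD4 T cell, neutrophil and melanoma, 0.40 for macrophage, 0.567 for B cell and 0.714 for erythroid markers. With so few splits, a sum could pass only if several lists reached the smallest p. The test therefore cannot show that the groups held equal parts of other cells. CD4 T cell markers, most of which was Cd40lg, summed to 31.7 to 74.4 CPM without and 92.0 to 105 CPM with SMARTA. Within groups, all 9 pairs of libraries differed beyond sampling noise, with a chi-square of 93.5 to 444 for each degree of freedom, and none was counted as a repeat.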

Additional observations from a re-analysis of the deposited data

How the results depend on the processing

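The count of all genes called was 241 higher and 259 lower with all libraries, and 10 to 510 higher and 7 to 397 lower with 1 library left out. With 1 library left out, 0 to 1 members were called higher and 0 to 1 lower, 0 to 7 MYC-induced, 0 to 16 cycling, 0 to 2 coactivator and 0 to 1 MYC stability genes lower, and 0 to 1 corepressor and 0 to 1 MLX target genes higher; none of the members changed direction except Mxi1 (-0.14, without replicate 3 with SMARTA, to 0.87) and Mlx (-0.073, without replicate 1 with SMARTA, to 0.20). The Myc to repressor difference ranged from -2.13 to -0.96. Library totals called 0 members higher, 398 genes lower, 1 corepressor, 2 coactivator and 3 stability genes lower and 0 MLX targets, gave Mlx -0.025, and moved the median of all genes to -0.16. The filter of 5 CPM called 2 members, 1 corepressor, 2 coactivator, 4 stability, 12 MYC-induced and 491 of all genes lower. DESeq2 called 822 genes higher and 919 lower, among them 2 members, 1 corepressor, 3 coactivator, 4 stability and 13 MYC-induced genes lower and 1 MYC-repressed gene higher. With limma-voom 2 stability genes were lower. Without both libraries that stand apart 611 genes were higher and 646 lower, with 1 partner (Mga), 1 corepressor and 1 MYC-repressed gene higher, 3 coactivator, 3 stability and 10 MYC-induced genes lower, and Mlx at -0.13. The cause of these shifts was not tested.

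With the replicate number as a block, edgeR called 0 genes, and so 0 members, lists included; 1631 genes had an unadjusted p under 0.05, and Mxd1 and Mxd3 had log2 fold changes of 1.54 and -2.31 (edgeR adjusted p = 0.326 for both). The labels do not say whether equal numbers mark a shared animal or day. Same-numbered libraries had deviations from their group means that correlated at -0.14, 0.026 and -0.27, and none correlated best with its own number. So few correlations cannot tell whether the numbers pair the libraries. The depth of 38092722 counts or more leaves every member far above the floor of 3 counts; no fit varied the depth.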
